A study of Mus musculus with 12 samples.

Results

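Apolipoproteins are the protein parts of lipoproteins, the particles that carry triglyceride and cholesterol through the blood, and the liver makes most of them. Apob is the structural protein of very low density lipoprotein, Apoa1 and Apoa2 are the main proteins of high density lipoprotein (HDL), and the smaller exchangeable apolipoproteins move between particles and set how fast lipases and receptors clear them. Expression of 10 such genes was followed here: Apoa1, Apoa2, Apoa4, Apoa5, Apob, Apoc2, Apoc3, Apoe, Apom and Apoh. They were taken by gene symbol from the probe annotation of the array, all 10 had a probe, and each had only 1, so the 10 member probes stood among 26423 probes and 19084 named genes. The genes and the lists set beside them were chosen with earlier results of these data known.

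Liver RNA of male C57BL/6 mice was hybridised to 12 single-colour arrays, 3 for each of 4 groups of 6 mice, in a study of a flavonoid extract of citrus (PTFC) in fatty liver. PTFC mice ate a high-fat diet (36.1% fat, with 2% cholesterol, lard, egg yolk powder and bile salt) and, once 6 weeks on the diet alone had passed, were given the extract by gavage for 18 weeks (daily dose 50 mg per kg); they were 31 to 33 weeks old. HFD24 and HFD16 mice ate that diet for 24 and 16 weeks and were 31 to 33 and 23 to 25 weeks old, and ND mice ate a normal diet (12.3% fat) for 24 weeks and were 30 to 33 weeks old. HFD24, HFD16 and ND mice received saline in place of the extract, and livers were taken after a 12 h fast. Age thus differs wherever HFD16 is compared. The labels do not say that the arrays of a group came from separate animals. The p-values thus set group differences only against the spread among these samples, which is possibly technical.

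The deposited values are linear intensities, and levels below are log2 of the intensity after quantile normalization. Median intensity per array lay between 249 and 408. Values on an array were whole multiples of a scaling step, which was 1.23 to 1.46 on ND arrays and 0.675 to 1.12 on the others. The step thus separated ND from every other array. As a covariate it is partly confounded with each comparison against ND, and calls lost with it there cannot be assigned to scaling or to diet. Groups were compared with limma over all probes, and a probe was called at a Benjamini-Hochberg adjusted p under 0.05. Of 18 hepatocyte markers 14 were measured, none was listed at 0 in a whole group, and their log2 summed intensity was 21.86 to 21.95 in PTFC, 21.82 to 21.86 in HFD24, 21.81 to 21.86 in HFD16 and 21.88 to 21.93 in ND. Of these 14 markers, by the brightest probe, only the amino acid enzyme Tat was called in HFD24 against ND (log2 difference -0.87 ± 0.22, SE). In HFD16 against ND 2 of the 14 were called lower and 0 higher. A dimmer probe of the marker Fga was called higher in HFD24 against ND (0.68, limma adjusted p = 0.0275) and in HFD16 against ND (0.66, 0.0318). Other dimmer Fga probes were called in neither. In whole liver, fewer cells of a type and less RNA per cell cannot be told apart.

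Of the 10 members 3 were called in HFD24 against ND, 2 higher and 1 lower, where 16.5% of all probes were called (8.5% higher and 7.96% lower). On the authors' scale and after 75th percentile scaling the median of all probes lay at -0.28 and -0.27 in that comparison, and 35.6% and 30.9% of its calls were higher, against 51.7% after quantile normalization. In HFD16 against ND 1 of 10 was called, where 16.3% of all probes were (8.64% higher and 7.69% lower). In PTFC against ND 1 of 10 was called, beside 1.75% of all probes (0.727% higher and 1.03% lower). Apoa4 was higher and Apoa5 lower in HFD24 than in ND, and Apoc2 was modestly higher. Apoa5 was also lower in HFD16, where Apoa4 was not called but lay below ND on every array. Apoa1, Apoa2, Apoc3, Apoe, Apoh, Apob and Apom were called in no comparison. No member was called by limma in PTFC against HFD24, beside 5.78% of all probes (3.07% higher and 2.71% lower), and none had an unadjusted p under 0.05 there, beside 24.3% of all probes. In HFD24 against HFD16 no member was called, beside 0.0227% of all probes (0.0114% in each direction).

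**Figure D1:**
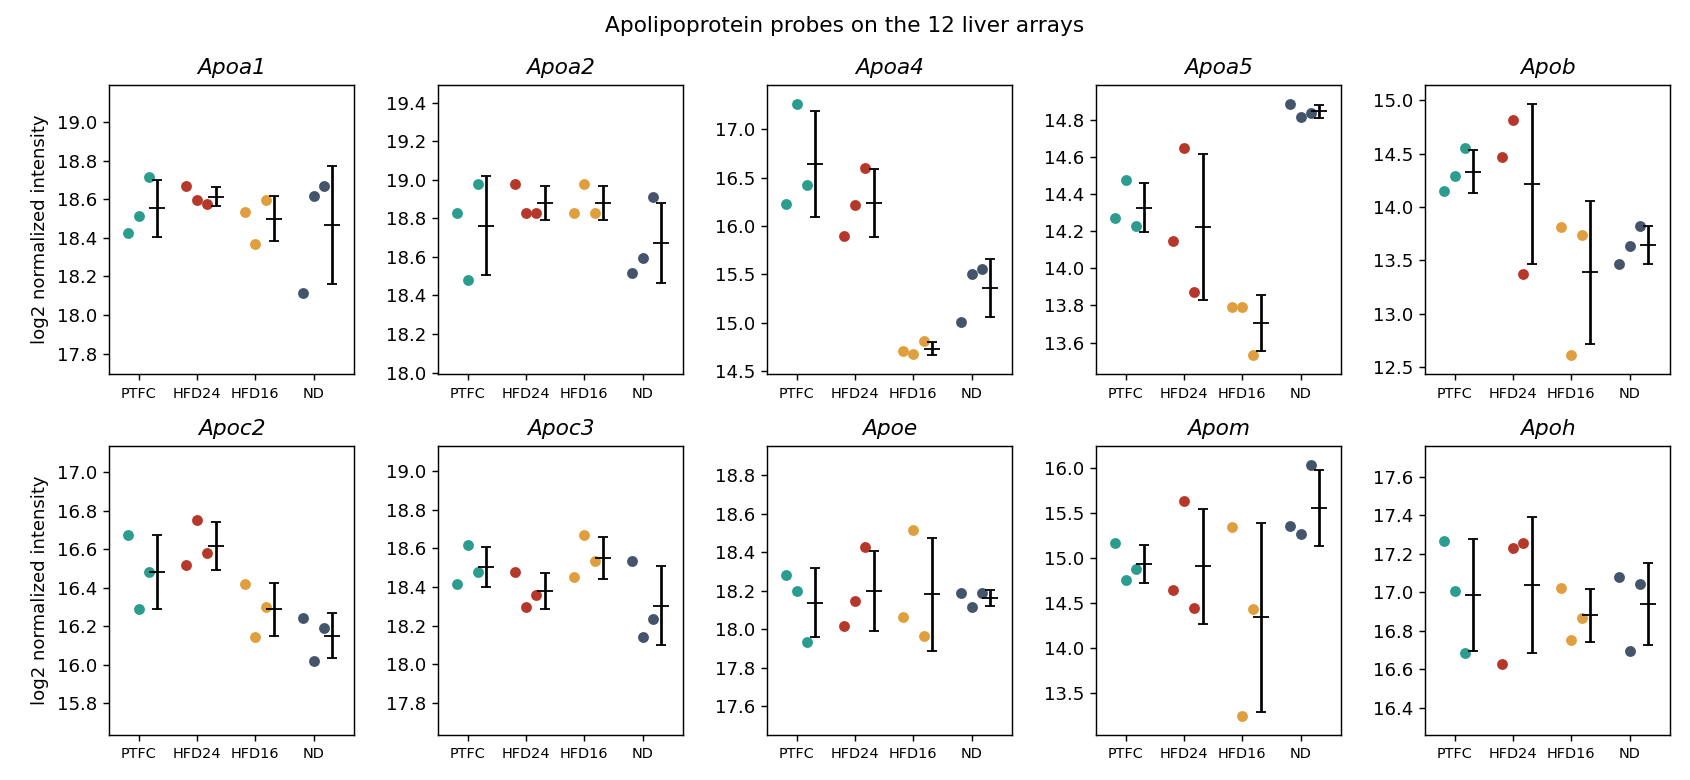
Log2 normalized intensity of the 10 apolipoprotein probes (y axis) on each array of PTFC, HFD24, HFD16 and ND (x axis). Each point is 1 array, and the black bar beside each group is the mean ± SD (n = 3). The panels share no common y range, and each spans at least 1.5 log2 units. Apoa4 lies above ND in PTFC and HFD24 and below it in HFD16, and Apoa5 lies below ND in all the other groups.

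Apoa1, Apoc3, Apoa4 and Apoa5 are neighbours, in that order, on mouse chromosome 9, and Apoe, Apoc1, Apoc4 and Apoc2 sit together on chromosome 7. Since Apoa4 was called higher and Apoa5 lower in HFD24 against ND, the promoters of Apoa4 and Apoa5 are shown, with that of Apoc2, which was also called. Each runs from 250 bases before to 50 bases after the annotated start, is taken from RefSeq on build GRCm38.p6, and is written 5′ to 3′ on the strand of the gene. Capitals mark matches, on either strand, to 4 motifs whose letters were chosen after the sequences had been seen. One is CAAAGTNCA, a core of sites bound by the hepatocyte factor HNF4. Another is AGGTCA, the half-site of many nuclear receptors. The E-box was searched as CACGTG, a palindrome that reads alike on both strands. The promoter element known as the TATA box was searched as TATAAA. The 4 motifs did not overlap one another in the windows shown.
Apoa4, chr9:46240594-46240893, plus strand: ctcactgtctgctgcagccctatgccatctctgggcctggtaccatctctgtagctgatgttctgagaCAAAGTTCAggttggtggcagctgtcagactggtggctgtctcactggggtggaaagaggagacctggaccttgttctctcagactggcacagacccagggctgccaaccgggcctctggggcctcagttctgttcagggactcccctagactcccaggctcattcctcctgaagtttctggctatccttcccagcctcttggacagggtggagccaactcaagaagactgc
Apoa5, chr9:46268358-46268657, plus strand: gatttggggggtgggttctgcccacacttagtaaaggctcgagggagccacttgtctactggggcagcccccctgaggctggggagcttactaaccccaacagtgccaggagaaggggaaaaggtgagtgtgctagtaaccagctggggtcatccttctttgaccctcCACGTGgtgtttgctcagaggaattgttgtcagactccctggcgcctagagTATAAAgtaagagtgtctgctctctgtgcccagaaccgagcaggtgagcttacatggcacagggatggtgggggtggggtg
Apoc2, chr7:19677892-19678191, minus strand: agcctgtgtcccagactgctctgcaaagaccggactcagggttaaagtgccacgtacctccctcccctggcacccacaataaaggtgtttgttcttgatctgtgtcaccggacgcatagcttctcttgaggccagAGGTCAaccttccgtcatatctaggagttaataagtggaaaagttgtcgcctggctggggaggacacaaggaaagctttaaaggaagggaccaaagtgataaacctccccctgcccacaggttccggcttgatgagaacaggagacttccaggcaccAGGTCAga
The Apoa4 window held 1 match, the HNF4-type core at position -182 from the start. The Apoa5 window held the E-box at -82 and the TATA box at -31, and the Apoc2 window held the half-site at -115 and at 42. Apoa5 has a further, overlapping entry in the table, in which the same E-box stands at -107 and the same TATA box at -56. Among all 32851 promoter windows of this length, the HNF4-type core occurred in 1.41%, the half-site in 16.3%, the E-box in 7.15% and the TATA box in 13.6%. Of the 10 members 9 had a promoter in the table, all but Apoc3. A match is a stretch of letters and was not tested as a binding site.

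Apoa4 encodes a lipid-binding protein of chylomicrons and HDL that rodents make in both intestine and liver. On the log2 scale it read 16.23, 17.26 and 16.43 on the PTFC arrays, 15.90, 16.22 and 16.60 on the HFD24 arrays, 14.71, 14.68 and 14.81 on the HFD16 arrays, and 15.01, 15.51 and 15.55 on the ND arrays. PTFC and HFD24 overlapped each other and lay wholly above ND, and HFD16 lay wholly below it. In deposited intensity, the Apoa4 group means were 114518 ± 47495 in PTFC, 73972 ± 15179 in HFD24, 26675 ± 933 in HFD16 and 43189 ± 7824 in ND (SD, n = 3).

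In HFD24, Apoa4 stood 1.85-fold above ND (log2 0.88 ± 0.25, SE, limma adjusted p = 0.0275). In PTFC it stood 2.43-fold above ND (log2 1.28 ± 0.25, limma adjusted p = 0.0231). HFD16 differed from ND by log2 -0.62 ± 0.25 without a call (limma adjusted p = 0.0988), and PTFC differed from HFD24 by 0.40, with a 95% interval from -0.13 to 0.93 (limma adjusted p = 0.347). Between HFD24 and HFD16, which share the diet and differ in its length and in age, Apoa4 differed by log2 1.51 ± 0.25. That was the widest difference of any member in the 5 comparisons, with an unadjusted p of 3.2e-05 and a limma adjusted p of 0.0905, in a comparison where 6 of 26423 probes passed. The HFD24 call against ND ended, by limma adjusted p, when ND array 1 (0.126), ND array 2 (0.0555), HFD24 array 2 (0.0585) or HFD24 array 3 (0.0975) was left out, and with the scaling step as a covariate (log2 0.65, 0.235) or centring on hepatocyte markers (0.0534), in a range of 0.0087 to 0.235 over 24 alternatives. The PTFC call against ND ended when ND array 1 (limma adjusted p = 0.12), PTFC array 2 (0.0605) or PTFC array 3 (0.0663) was left out, under median centring (0.0634) and with the scaling step as covariate (0.214), in a range of 0.0159 to 0.214.

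Because Apoa4 is also an intestinal gene, 8 enterocyte markers were measured beside it, and none was at 0 in a whole group. Their log2 summed intensity was 16.60 to 17.00 in PTFC, 16.84 to 17.19 in HFD24, 17.13 to 17.21 in HFD16 and 15.62 to 16.03 in ND. The median difference of the 8 markers was 0.07 in HFD24 against ND and 0.12 in HFD16 against ND. In HFD24 against ND 1 marker was called higher and 2 lower, and in HFD16 against ND 1 higher and 1 lower. The marker called higher was the fatty acid binding protein Fabp2, at log2 1.13 ± 0.14 in HFD24 and 1.33 ± 0.14 in HFD16 against ND. The intestinal disaccharidases Lct and Sis were not called, at -0.21 and 0.14, and Cdx2 and Alpi were called lower, at -0.59 and -0.76, in HFD24 against ND. In PTFC against ND 1 of the 8 markers was called higher and 0 lower, at a median difference of 0.03. PTFC against HFD24 also had 1 higher and 0 lower, at a median of 0.14. The part of intestinal RNA in the Apoa4 values was not tested.

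Apoa5 encodes a scarce plasma protein that promotes the breakdown of triglyceride by lipoprotein lipase. The log2 levels were 14.27, 14.48 and 14.23 in PTFC, 14.15, 14.65 and 13.87 in HFD24, 13.79, 13.79 and 13.53 in HFD16, and 14.89, 14.82 and 14.84 in ND. The ND arrays agreed within 0.069 log2 units, and every array of the other groups lay below them. HFD16 also lay wholly below HFD24.

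Apoa5 fell 2.21-fold in HFD16 against ND (log2 -1.14 ± 0.18, limma adjusted p = 0.00254). This call held in 23 of 24 alternatives, with each of the 12 arrays left out among them, and was lost with the scaling step as a covariate (log2 -1.04, limma adjusted p = 0.0817). In HFD24 Apoa5 was 1.54-fold lower than in ND (log2 -0.62 ± 0.18, limma adjusted p = 0.0309). The HFD24 call ended, by limma adjusted p, when ND array 1 (0.103), ND array 2 (0.0806), HFD24 array 1 (0.1) or HFD24 array 3 (0.109) was left out, under median centring (0.14), in a fit of the 2 groups alone (0.0748), with the scaling step as covariate (0.185) and with centring on hepatocyte markers (0.0552), in a range of 0.00755 to 0.185. Apoa5 in PTFC differed from HFD24 by log2 0.10 (95% interval -0.28 to 0.49) and from ND by -0.52 ± 0.18 (limma adjusted p = 0.164), and HFD24 differed from HFD16 by 0.52 ± 0.18 (limma adjusted p = 0.381).

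**Figure D2:**
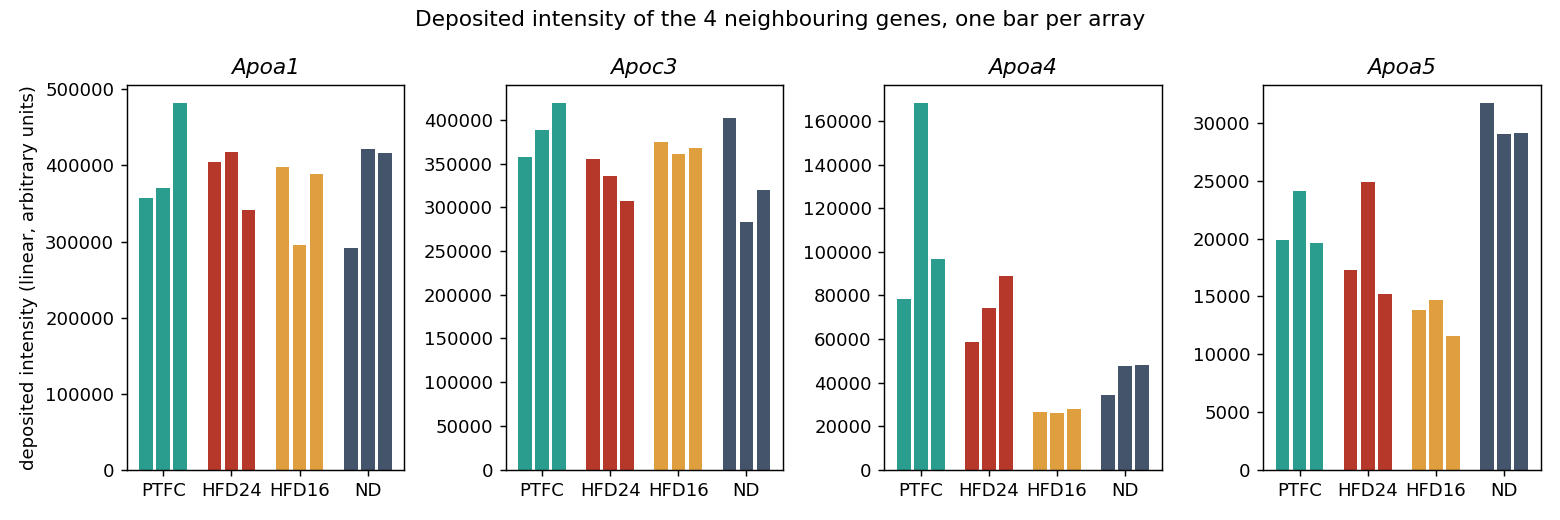
Deposited intensity (y axis, linear, arbitrary units, a separate range in each panel) of Apoa1, Apoc3, Apoa4 and Apoa5, the 4 neighbouring genes of chromosome 9, with 1 bar for each array of PTFC, HFD24, HFD16 and ND (x axis). The bars start at 0. Apoa1 and Apoc3 were called in no comparison, the tallest Apoa4 bar is a PTFC array and the tallest Apoa5 bar an ND array.

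The remaining genes of that cluster had bright probes, which places their intensity on the array and not their expression against other genes. Apoa1 ranked between 5 and 36 from the top over the 12 arrays and Apoc3, whose protein slows lipolysis and particle uptake, between 6 and 35. At such ranks quantile normalization sets the level, so small differences there do not show steady expression. Apoa1 averaged 18.55 ± 0.15 in PTFC, 18.61 ± 0.05 in HFD24, 18.50 ± 0.12 in HFD16 and 18.47 ± 0.31 in ND (log2 level, SD, n = 3). Its first ND array, at 18.11, was the lowest of all 12. The HFD24 difference from ND was 0.15 for Apoa1 (95% interval -0.14 to 0.43, limma adjusted p = 0.476) and 0.07 for Apoc3 (-0.16 to 0.31, limma adjusted p = 0.682). Apoc3 averaged 18.50 ± 0.10 in PTFC, 18.38 ± 0.09 in HFD24, 18.55 ± 0.11 in HFD16 and 18.30 ± 0.21 in ND, and in HFD16 against ND it differed by 0.25 ± 0.11 (limma adjusted p = 0.132).

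Apoc2 encodes the cofactor that lipoprotein lipase needs. Log2 levels of Apoc2 were 16.67, 16.29 and 16.48 in PTFC, 16.52, 16.75 and 16.58 in HFD24, 16.42, 16.15 and 16.30 in HFD16, and 16.24, 16.02 and 16.19 in ND. HFD24 lay wholly above HFD16 and ND and overlapped PTFC. In HFD24, Apoc2 stood 1.38-fold above ND (log2 0.47 ± 0.13, limma adjusted p = 0.0253), and PTFC differed from HFD24 by -0.14 (95% interval -0.41 to 0.14). The Apoc2 call ended, by limma adjusted p, when ND array 1 (0.054), ND array 2 (0.105) or HFD24 array 2 (0.0809) was left out, under median centring (0.0649), 75th percentile scaling (0.098), the authors' scale (0.0764), centring on hepatocyte markers (0.0578) and a prior variance without trend (0.063), in a range of 0.0231 to 0.105. The neighbouring Apoc1 and Apoc4, which encode further small exchangeable apolipoproteins, differed by -0.05 and -0.11 in HFD24 against ND and were not called.

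Apoe, on the same cluster, encodes the ligand by which remnant particles bind hepatic receptors, and macrophages make it as well as hepatocytes. Its log2 level was 18.28, 18.20 and 17.94 in PTFC, 18.02, 18.15 and 18.43 in HFD24, 18.06, 18.52 and 17.97 in HFD16, and 18.19, 18.11 and 18.19 in ND. The groups overlapped in every comparison, and the ND arrays were closest together. Apoe ranked between 12 and 50 from the top, where quantile normalization also sets the level. The HFD24 difference from ND was 0.04, with a 95% interval from -0.28 to 0.35 (limma adjusted p = 0.896). Of 16 macrophage and monocyte markers 14 were measured, none at 0 in a whole group, and all 14 rose in HFD24 against ND, where 8.5% of all probes were called higher. Their log2 summed intensity was 15.12 to 15.75 in PTFC, 16.39 to 16.73 in HFD24, 14.51 to 16.66 in HFD16 and 13.33 to 14.12 in ND. In the same comparison 9 of 12 Kupffer cell, 7 of 10 stellate cell and 6 of 8 endothelial markers rose and none of them fell, while of 6 cholangiocyte markers none rose and 2 fell. In HFD24 against ND these markers thus differed in the comparison in which Apoa4, Apoa5, Apoc2 and the gene lists described below were called, and their part in those results was not tested. In HFD16 against ND 9 of the 14 macrophage and monocyte markers rose, where 8.64% of all probes were called higher. In PTFC against HFD24 2 fell, where 2.71% of all probes were called lower.

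**Figure D3:**
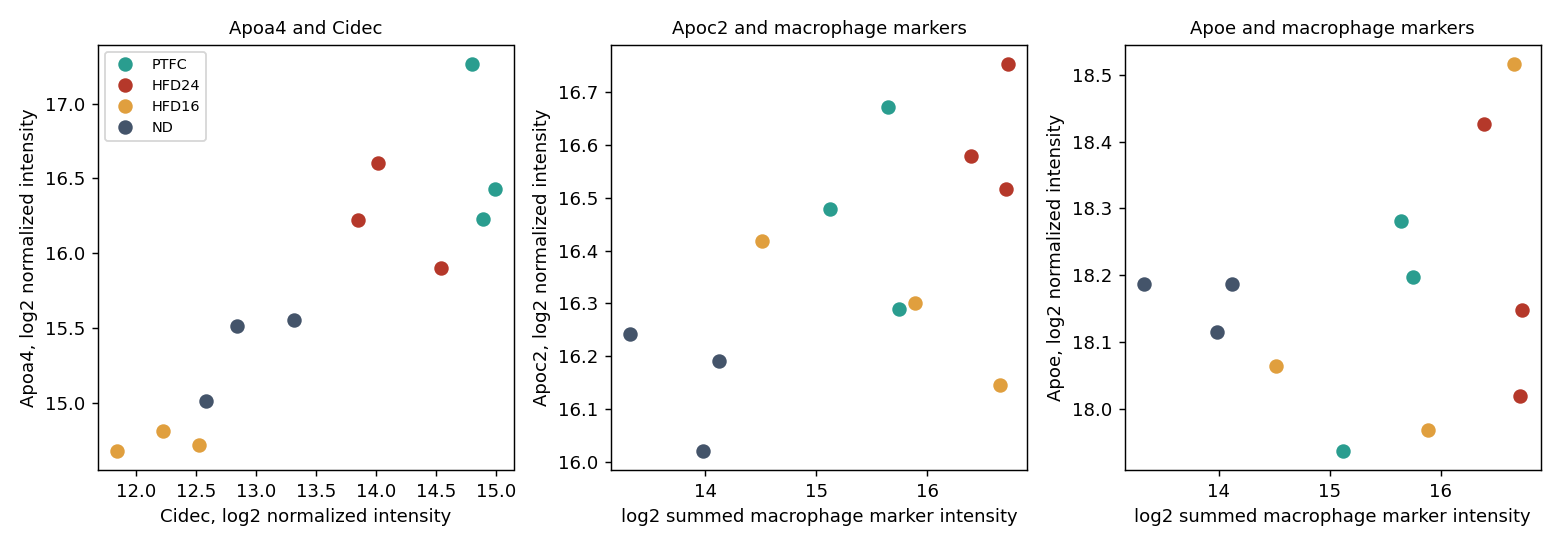
Left, Apoa4 against Cidec, both as log2 normalized intensity. Middle and right, Apoc2 and Apoe (y axis, log2 normalized intensity) against the log2 summed intensity of 14 macrophage and monocyte markers (x axis). Each point is 1 of the 12 arrays, coloured by group. HFD16 arrays hold the low end of both Apoa4 and Cidec and PTFC and HFD24 arrays the high end, while Apoe spans 17.94 to 18.52 without separating the groups.

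Apob is the large non-exchangeable protein on which the liver builds very low density lipoprotein. Its log2 level was 14.15, 14.29 and 14.55 in PTFC, 14.46, 14.81 and 13.38 in HFD24, 13.81, 12.61 and 13.74 in HFD16, and 13.46, 13.64 and 13.82 in ND. The 3 PTFC arrays lay above the 3 ND arrays, and HFD24 spread over 1.44 log2 units with HFD24 array 3 the low one. Apob differed by 0.69 ± 0.35 in PTFC against ND (limma adjusted p = 0.373), by 0.58 ± 0.35 in HFD24 against ND (0.278) and by 0.83 ± 0.35 in HFD24 against HFD16 (0.474). Without HFD24 array 3 the HFD24 difference from ND was 1.00 (limma adjusted p = 0.05, just under the threshold), and with the scaling step as a covariate it was 1.34 (0.035), in a range of 0.28 to 1.34 over 24 alternatives.

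Apom encodes a lipocalin that carries sphingosine 1-phosphate on HDL. Its log2 level was 15.17, 14.76 and 14.88 in PTFC, 14.65, 15.64 and 14.45 in HFD24, 15.35, 13.25 and 14.44 in HFD16, and 15.36, 15.28 and 16.04 in ND. PTFC lay wholly below ND, at a difference of -0.62 ± 0.43 (limma adjusted p = 0.553). HFD16 spread over 2.10 log2 units, the widest of any member in any group. Its difference from ND was -1.21 ± 0.43 (limma adjusted p = 0.068), which became -0.67 without the second HFD16 array (0.233), -1.72 without the first (0.00938) and -0.06 with the scaling step as a covariate (0.955). On the authors' scale it was -1.23 (0.0482).

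Apoa2 was the brightest probe on some arrays, ranking between 1 and 13, and averaged 18.76 ± 0.26 in PTFC, 18.88 ± 0.09 in HFD24, 18.88 ± 0.09 in HFD16 and 18.67 ± 0.21 in ND. At such ranks quantile normalization sets the level: Apoa2 held the same ranks in HFD24 and HFD16, so that its fitted difference between them was 0. In deposited intensity the Apoa2 means were 457356 ± 88939 in PTFC, 481350 ± 36844 in HFD24, 461987 ± 27628 in HFD16 and 444203 ± 68303 in ND (SD, n = 3), and the groups overlapped. No array had more than 1 probe at its highest value. Apoh, beta-2-glycoprotein I, a plasma protein that binds anionic phospholipid, averaged 16.98 ± 0.29 in PTFC, 17.04 ± 0.36 in HFD24, 16.88 ± 0.14 in HFD16 and 16.94 ± 0.21 in ND. Its differences in the 5 comparisons lay between -0.06 and 0.16, and none was called.

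In HFD24 against HFD16, 4 members had an unadjusted p under 0.05 (Apoa4, Apoa5, Apob and Apoc2, all higher in HFD24), beside 9.72% of all probes. The groups did not overlap for 5 of 10 members in PTFC against ND, beside 20.6% of all probes, and for none in PTFC against HFD24, beside 30.9%. They did not overlap for 3 members in HFD24 against ND, beside 32.5%, and for 2 in HFD16 against ND, beside 34.6%. In HFD24 against HFD16 it was 3 members, beside 16.2%. All these shares rest on 10 genes, and nothing particular to apolipoproteins was read from them. The median difference of the members was 0.12 in HFD24 against ND, -0.02 in HFD16 against ND and -0.01 in PTFC against HFD24, beside -0.07, -0.05 and 0.02 over all probes. It was 0.24 in HFD24 against HFD16 and 0.09 in PTFC against ND, beside -0.01 over all probes in each. HFD24, HFD16 and PTFC were all set against the same ND arrays, so those comparisons are not independent.

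**Figure D4:**
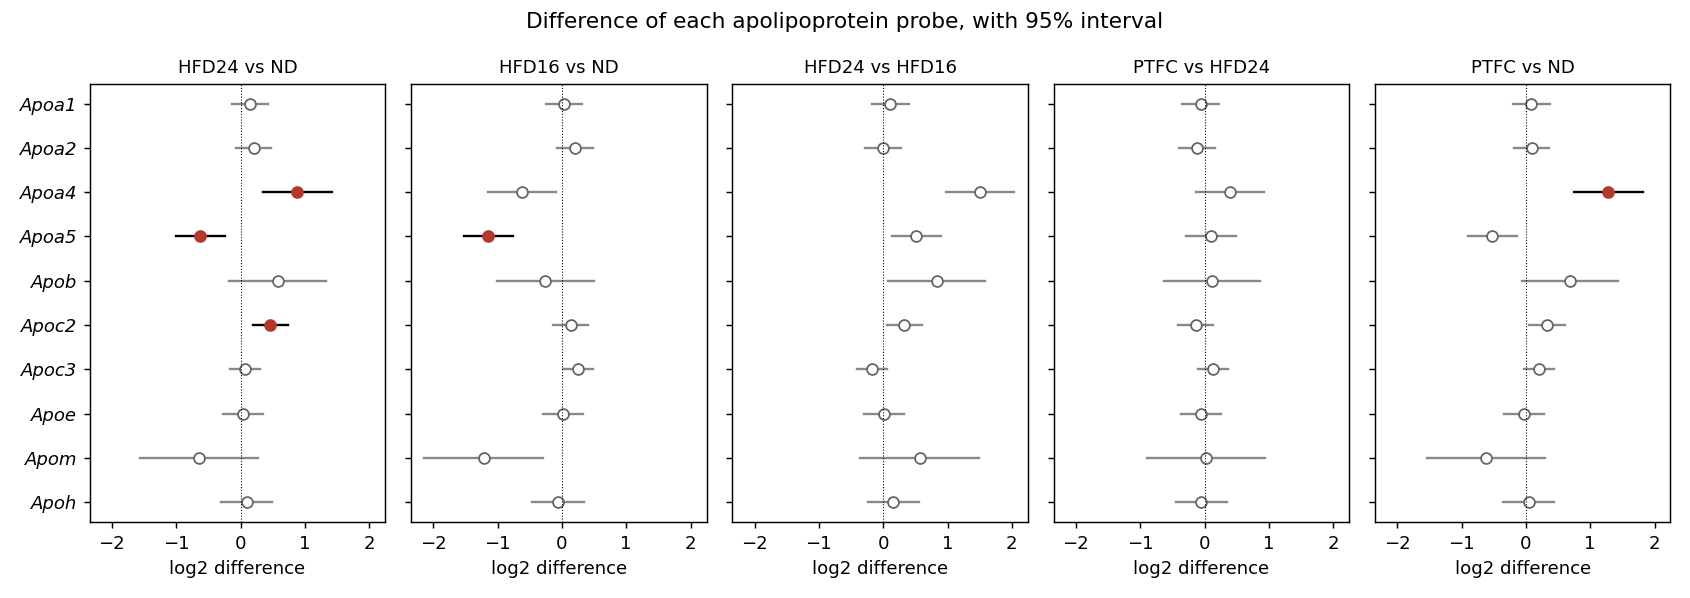
Log2 difference of each apolipoprotein probe (x axis) in 5 comparisons, with its 95% interval from limma. Filled points passed at an adjusted p under 0.05. Filled points are Apoa4, Apoa5 and Apoc2 in HFD24 against ND, Apoa5 in HFD16 against ND and Apoa4 in PTFC against ND, and PTFC against HFD24 has none.

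Arrays that were high for one member were not high for all. After group means were removed, Apob and Apom varied together (Pearson r = 0.78 over 12 arrays) and Apob and Apoe in opposite ways (r = -0.86). These were the highest and the lowest r of all pairs of members and were picked for that. Both values describe these arrays, whose probes share RNA and normalization. The second HFD16 array and the second ND array were each the lowest of their group for 6 of 10 members, with scaling steps of 0.675 and 1.23. Of 15492 genes, those most like Apoa4 over the 12 arrays were Cntnap1 (Pearson r = 0.90), Cgref1 (0.90) and Cidec (0.89). Those most like Apoa5 were Rmrp (0.95), Ddx6 (0.94) and Foxp3 (0.94), and those most like Apoc2 were Flot2 (0.93), Atox1 (0.91) and Lin52 (0.91). Apom was most like Selenos (0.97). All these genes were picked for their r over the same 12 arrays, so a high r is in part set by the choice.

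Cidec, which fuses lipid droplets, was also in the list of lipoprotein assembly and secretion genes. Cidec had log2 levels of 14.89, 14.80 and 14.99 in PTFC, 14.54, 13.85 and 14.01 in HFD24, 12.52, 11.84 and 12.22 in HFD16, and 12.58, 12.84 and 13.32 in ND. Like Apoa4 it was lower in HFD16 than in ND on every array and higher in HFD24 and PTFC. Cidec rose in HFD24 against HFD16 (log2 1.94 ± 0.23, limma adjusted p = 0.00944), in HFD24 against ND (1.22 ± 0.23, 0.00399) and in PTFC against ND (1.98 ± 0.23, 0.00161). In HFD16 against ND the difference was -0.72 ± 0.23, at the edge of the threshold (limma adjusted p = 0.0499), a call that held in 8 of 24 alternatives.

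That list had 16 measured genes. In HFD24 against ND 2 rose, Cidec and Mia2, which encodes a cargo receptor for large particles at endoplasmic reticulum exits (log2 0.82 ± 0.24), and none fell. Mttp, the transfer protein that loads lipid onto Apob, differed by -0.39 ± 0.15 in HFD24 against ND (limma adjusted p = 0.0895) and by 0.45 ± 0.15 in PTFC against HFD24 (0.0824). A dimmer Mttp probe was called in HFD24 against ND (log2 -0.51, limma adjusted p = 0.0472). In HFD16 against ND Sort1, a sorting receptor for Apob, and Mia2 rose, by 0.81 and 0.78, and Cidec fell. A dimmer Sort1 probe was not called in HFD16 against ND (0.59, limma adjusted p = 0.101).

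Of 15 other apolipoprotein genes measured, 6 rose and none fell in HFD24 against ND, and 5 rose and none fell in HFD16 against ND. The smallest p in HFD24 against ND were those of Apol9b (log2 1.42 ± 0.26) and Apol11b (2.14 ± 0.46), members of the apolipoprotein L family, whose probes for the near-identical Apol9a and Apol9b may read both genes. Saa4, a constitutive serum amyloid A of HDL, rose by 0.87 in HFD24 and 1.14 in HFD16 against ND. In PTFC against HFD24 3 fell and none rose. They were Apof, an inhibitor of lipid transfer in human plasma (log2 -0.48 ± 0.10, limma adjusted p = 0.0214), Apol9b (-1.26, 0.0235) and Apol9a (-1.33, 0.0372). Apof had log2 levels of 17.43, 17.32 and 17.25 in PTFC and 17.73, 17.95 and 17.77 in HFD24, without overlap.

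Among 14 receptor genes measured, 3 rose and 1 fell in HFD24 against ND. Cd36 was the one that fell, a fatty acid and lipoprotein scavenger receptor, at log2 -1.09 ± 0.19 (limma adjusted p = 0.00269, called in 24 of 24 alternatives), and it rose in PTFC against HFD24 by 1.00 ± 0.19 (limma adjusted p = 0.0187). A dimmer Cd36 probe had the opposite sign in HFD24 against ND, at 0.67, and was not called (limma adjusted p = 0.121), so the direction for the gene is uncertain. Scarb1, the HDL receptor, rose by log2 0.72 ± 0.15 in HFD24 against ND and fell by 0.65 ± 0.15 in PTFC against HFD24 (limma adjusted p = 0.0287). Vldlr rose by 1.17, with another probe at 1.26, and Mylip, a ligase that marks lipoprotein receptors for breakdown, rose by 1.25. A dimmer Mylip probe was not called in HFD24 against ND (0.98, limma adjusted p = 0.066). Among 8 lipase genes 1 rose and 3 fell in HFD24 against ND. Gpihbp1, which holds lipoprotein lipase on capillaries, rose by 1.25 ± 0.27, while Lipg, endothelial lipase, fell by 0.69, Lpl by 0.98 and Angptl4, which inhibits lipoprotein lipase, by 0.52. The Lpl probe was among the dimmest 25% of probes, and its call (limma adjusted p = 0.0375) held in 17 of 23 alternatives. Lipg and Angptl4 also fell in HFD16 against ND, by 1.46 ± 0.19 and 1.05 ± 0.15, and Angptl4 was higher in PTFC than in HFD24 by 0.61 ± 0.15 (limma adjusted p = 0.0401), where Pnpla3, a lipid droplet lipase, fell by 1.24 ± 0.32 (0.0407).

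Of 9 HDL genes 4 rose and none fell in HFD24 against ND, namely the sterol exporter Abcg1 (log2 2.61 ± 0.23, limma adjusted p = 8.1e-05), Abca1, which loads lipid onto Apoa1 (0.52 ± 0.12), Pcyox1 (0.53) and Pon3 (0.59). Abcg1 also rose in HFD16 against ND (2.08 ± 0.23) and in PTFC against ND (1.65 ± 0.23), and fell in PTFC against HFD24 by 0.96 ± 0.23 (limma adjusted p = 0.0324). Regulators of apolipoprotein genes, 25 measured, had 3 higher and 2 lower in HFD24 against ND. Srebf1, which drives fatty acid synthesis genes, rose by log2 1.64 ± 0.28 (called in 23 of 24 alternatives) and Nr0b2, a corepressor of nuclear receptors, by 1.64 ± 0.46 (19 of 24). The coactivator Ppargc1a fell by 1.40 ± 0.25 (24 of 24) and Nr5a2, a nuclear receptor of hepatocytes, by 0.69 ± 0.20 (16 of 24). Hnf4a, which drives many apolipoprotein promoters, and Creb3l3, which is known to raise Apoa4 and Apoa5 in mouse liver, were not called in any comparison. Creb3l3 differed by 0.46 ± 0.14 in PTFC against HFD24 (limma adjusted p = 0.0679) and by -0.09 in HFD24 against ND (0.69). In PTFC against HFD24 1 regulator rose, Srebf2, which drives sterol synthesis genes (0.77 ± 0.21, limma adjusted p = 0.0482), and none fell. Of 22 named genes of these lists called in HFD24 against ND, 13 lost the call with the scaling step as covariate and 7 with centring on hepatocyte markers. In that comparison 8, 9 and 4 were no longer called when ND array 1, 2 or 3 was left out, and 8, 5 and 8 when HFD24 array 1, 2 or 3 was. Of 20 called in HFD16 against ND, 15 lost the call with the scaling step as covariate and 6 with hepatocyte centring, 8, 8 and 4 when ND array 1, 2 or 3 was left out, and 3, 8 and 9 when HFD16 array 1, 2 or 3 was. Of the 9 called in PTFC against HFD24, none was still called without HFD24 array 1, HFD24 array 2 or PTFC array 3, 1 was without PTFC array 2, and 7 lost the call with hepatocyte centring.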

How the data were processed

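Per the labels' protocols, Trizol-extracted RNA was amplified as amino-allyl RNA and coupled to Cy5. The authors deposited linear intensity values of 26423 probes on each of 12 arrays. The sources used here do not give their background subtraction, scaling or probe selection. Of these values 291 were below 0 and 133 were 0.

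Values below 0 were set to 0, a pseudocount of 1 was added, and the log2 values of the deposited intensities were quantile normalized over all arrays, so differences refer to log2(intensity + 1). The platform annotation gave 21876 probes 1 symbol and left 4547 unnamed here. Every probe was fitted with limma 3.58.1 in R 4.3.3 (group means over all 12 arrays, eBayes with trend, two-sided, Benjamini-Hochberg over all probes). The fit was checked on simulated data. For genes of lists with several probes, the brightest was used. The naming rule allowed, per comparison, up to 4 genes of each list with the smallest p, and for likeness the 3 genes of highest Pearson r with each member; Apoc1, Apoc4, Lct, Sis, the other cell type markers, Creb3l3 and Hnf4a where outside the rule, and the dimmer probes, were named after their values were seen. The members and lists were chosen with earlier results of these data known. Alternatives changed normalization, pseudocount, filter, probe choice, prior variance, samples, block and scaling step, left out each array, and, chosen after the data were seen, centred arrays on hepatocyte markers. Same-numbered arrays of different groups had deviations that correlated at -0.29 to 0.14 over 18 pairs, so the numbers were not taken to pair samples. Ranks place a probe's intensity on its array and are not compared as expression between genes. The number of arrays limits the precision. Detection flags, slides and scans were not analysed here.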

Additional observations from a re-analysis of the deposited data

Results flagged for a closer look

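Apoa4 lay on opposite sides of ND at the later and the earlier time on the diet. It was called in HFD24 against ND (log2 0.88, limma adjusted p = 0.0275) and not in HFD16 against ND (-0.62, 0.0988). All 3 HFD24 arrays lay above the 3 ND arrays and all 3 HFD16 arrays below them, so that HFD24 minus HFD16 was 1.51 on the log2 scale (limma adjusted p = 0.0905, and 0.0158 to 0.251 over 24 alternatives, 1 of which, without the second PTFC array, was past the threshold). Such a lack of overlap was common, at 32.5% of all probes in HFD24 against ND and 34.6% in HFD16 against ND. The mice also differed in age, which cannot be told apart from time on the diet.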

How the results depend on the processing

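Over 24 alternatives and 50 member differences, 1107 of 1200 recomputed values kept their direction and side of the threshold or moved by under 1 SE. Of the rest, 28 lost a call, 7 gained one and 58 moved by over 1 SE without a call. Only differences called in the fit described above could lose a call. Of 24 alternatives, the HFD24 against ND call held in 18 for Apoa4, 16 for Apoa5 and 16 for Apoc2. The Apoa5 call in HFD16 against ND held in 23, and the Apoa4 call in PTFC against ND in 19. No called value changed sign, while 68 values called neither in that fit nor in the alternative did. The cause of these changes was not tested. The count of members called in HFD24 against ND was 1 under median centring and 0 with centring on hepatocyte markers. In HFD16 against ND it was 2 on the authors' scale and in a fit of the 2 groups alone, and 0 with the scaling step as a covariate. In PTFC against ND it was 0 under median centring and with the scaling step. Leaving out single arrays gave 0 to 3 members in HFD24 against ND (0 without the first or the second ND array), 1 to 2 in HFD16 against ND, 0 to 1 in HFD24 against HFD16, 0 to 0 in PTFC against HFD24 and 0 to 1 in PTFC against ND.

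Of all probes, 4348 were called in HFD24 against ND, and 1133 with the scaling step, 2292 with hepatocyte centring and 1979 to 6474 without single arrays. For HFD16 against ND the count was 4316, with 183, 2013 and 1436 to 5895 in the same order. For HFD24 against HFD16 it was 6, with 2 under median centring, the authors' scale and hepatocyte centring, 3 without a trend, 0 in the fit of 2 groups and 3 to 11 without single arrays. For PTFC against HFD24 it was 1528, with 3165 after 75th percentile scaling, 3101 on the authors' scale and 2150 with the scaling step. In that comparison it was 841 with hepatocyte centring and 8 to 2721 without single arrays. The share of its calls that were higher was 53.1%, against 85.9% after 75th percentile scaling and 92.4% on the authors' scale. For PTFC against ND it was 463, with 255 under median centring, 57 with the scaling step, 168 with hepatocyte centring and 55 to 663 without single arrays. With the replicate number as a block, 611 probes were called in PTFC against HFD24 and 289 in PTFC against ND, and the counts of members called were unchanged; the numbers share no known origin. Centring on hepatocyte markers was chosen after seeing the data.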
